A study of Mus musculus with 8 samples.

Results

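The genes described here are those of the DNA damage checkpoint and of DNA repair in the mouse testis. A list of 39 genes was set against the gene names of the array, and each gene was represented by the brightest non-control probe that carries its name. 34 of the 39 genes had such a probe, among 17946 gene symbols measured in all, and the brightest probe of each of the 34 was well above background on all 8 arrays. Total RNA of whole testes from male pups at postnatal day 8 was compared between 4 wild type and 4 VRK1-deficient samples, labelled as biological replicates, on 1-colour Agilent arrays with Cy3. The VRK1-deficient mice came from a single gene-trapped embryonic stem cell line, RRR178, in which β-geo, a fusion of β-galactosidase and neomycin resistance, sits in an intron of Vrk1. The allele is hypomorphic, so some full-length VRK1 remains, every cell of the body carries it, and the line had been backcrossed to C57BL/6. The labels do not give how many animals stood behind each sample.

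VRK1 is a nuclear serine/threonine kinase that acts in mitosis and in the response to DNA damage. When DNA breaks or a replication fork stalls, the kinases ATM and ATR are activated and pass the signal to CHK2 and CHK1, which hold the cell cycle while the lesion is mended. Breaks through both strands are cut back and repaired from a sister copy by homologous recombination or rejoined directly by end joining, and separate pathways remove crosslinks, mismatches, bulky adducts and single-strand breaks. In the postnatal testis many of these proteins serve dividing spermatogonia and also the programmed breaks of meiotic recombination, which begins around this age.

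Vrk1 itself, the gene carrying the insertion, was measured first. All values are log2 scaled signals, the log2 of the processed signal minus the log2 of the 75th percentile of that array, so that 0 is the brightness of the 75th percentile. The probe A_51_P102339 gave -0.20, -0.11, 0.59 and 0.35 in wild type replicates 1 to 4 and -3.97, -3.68, -3.58 and -4.16 in VRK1-deficient replicates 1 to 4. The difference was -4.0 (SE 0.21, limma with Benjamini-Hochberg adjustment, adjusted p = 0.000135), or 6.23% of wild type, and all arrays matched their labels. Between 64.2% and 69.5% of wild type and between 63.6% and 64.9% of VRK1-deficient non-control spots were well above background, and none was saturated. Replicates 1 and 2 of both genotypes were on slide 1 and replicates 3 and 4 on slide 2. On both slides wild type samples held positions 1 and 2 and VRK1-deficient samples positions 3 and 4, so position and genotype cannot be told apart. Replicate 1 of the wild type stood apart from the other wild type samples, and results that turn on it are also given without it. Across probes it correlated at 0.97 to 0.986 with them and at 0.987 to 0.99 with the VRK1-deficient arrays. It was picked out from these same values. Leaving out the wild type array nearest the VRK1-deficient ones tends to widen differences and narrow the wild type spread. Results without it describe this dependence and are not separate support.

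None of the 34 checkpoint and repair genes passed the test across all 26951 probes (limma, adjusted p under 0.05), where 1.97% of all probes were called lower and 1.68% higher in VRK1-deficient testes. Over all probes the calls split into 530 lower and 452 higher, and into 852 and 64 on the deposited values without scaling and 218 and 378 with each array's median as the scale. The smallest adjusted p among the genes was 0.0681, for Prkdc, and the largest 0.925, for Atm. The methods' t-test after Benjamini-Hochberg adjustment also called 0 of the 34, and without adjustment it put 8 lower and 1 higher (Fancc) at p under 0.05. By the same unadjusted t-test, 7064 of all 26951 probes were at p under 0.05, both directions together. By limma without adjustment, 10 of the 34 genes (29.4%) were lower at p under 0.05, against 14.7% of all probes, and 0 were higher, against 14.1%. The VRK1-deficient arrays lay wholly below the wild type arrays for 4 genes (11.8%, against 7.27% of all probes), Blm, Prkdc, Fanca and Fancg, and wholly above them for 0 (against 9.43%). These counts use the brightest probe of each gene. Another Fancg probe lay wholly above wild type, by 0.75 (limma, adjusted p = 0.0493).

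The point estimates were mostly below 0. 26 genes had a lower mean in VRK1-deficient testes and 8 a higher one, so that 76.5% lay below 0 against 45.5% of all probes, and their median log2 change was -0.24 against 0.04 over all probes. On the deposited values without scaling, 33 were lower and 1 (Xpa) higher, with 66.2% of all probes lower, and both medians moved down, to -0.42 and -0.14. The changes ran from -0.96 for Bard1 to 0.24 for Xpa, and 0 of 34 reached 2-fold. For 28 genes the 95% confidence interval lay wholly within a 2-fold change. For the other 6, Chek1, Bard1, Xrcc2, Wrn, Exo1 and Fancd2, it reached beyond a 2-fold fall. In RNA of a whole testis, fewer cells of a type and less RNA per cell cannot be told apart.

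**Figure D1:**
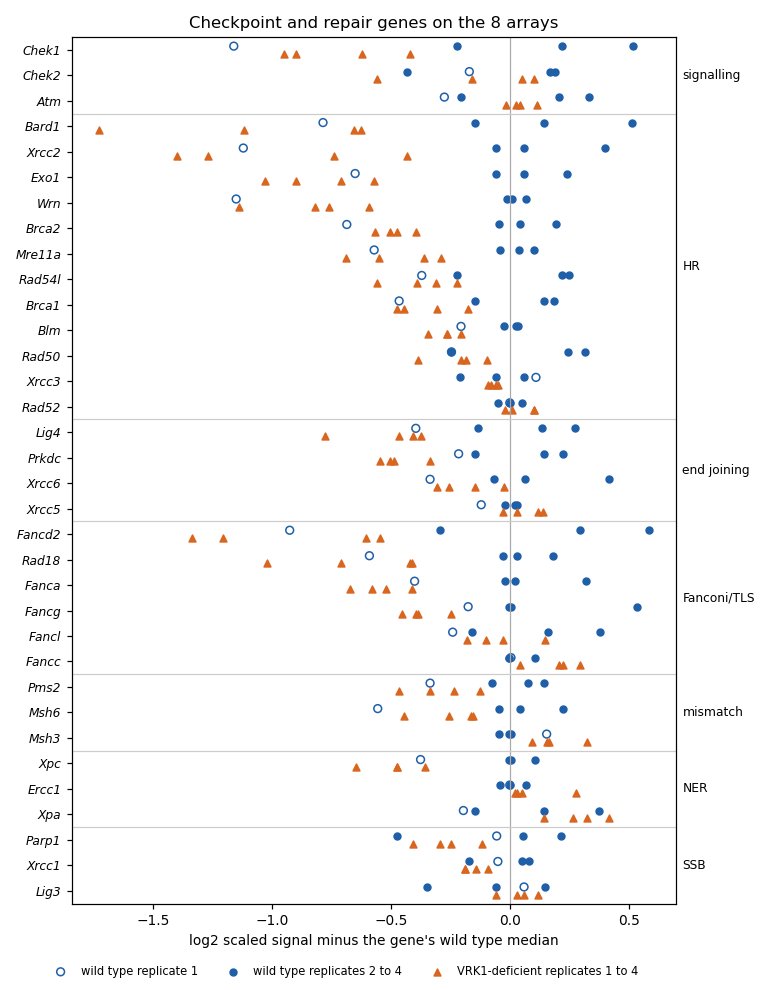
Log2 scaled signal of each of the 34 genes on each of the 8 arrays, as the difference from the gene's wild type median (x axis) and ordered by role (y axis). Open circles are wild type replicate 1, filled circles the other wild type replicates and triangles the VRK1-deficient replicates. The open circle is the lowest wild type value in 24 of 34 genes and often falls among the triangles.

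With all arrays 0 of the 34 genes passed the threshold, and 15 passed it without wild type replicate 1. It was the lowest of the 4 wild type arrays in 24 of 34 genes, and in 19 of the 26 genes with a lower mean in VRK1-deficient testes it lay below the highest VRK1-deficient array. The median SD over the genes was 0.30 in wild type and 0.12 in VRK1-deficient testes. Without wild type replicate 1, 15 of the 34 genes (44.1%) were called lower, where 14.7% of all probes were called lower by the same test, and 0 were called higher, where 13.6% of all probes were. The 15 were Chek1, Mre11a, Brca1, Bard1, Brca2, Xrcc2, Wrn, Exo1, Prkdc, Lig4, Fanca, Fancd2, Fancg, Rad18 and Xpc. Second probes did not all share the call. For Chek1, Brca2, Wrn and Xpc the second probe was also called lower without that array, and for Mre11a 1 of 2 was. Those of Brca1 (-0.35, adjusted p = 0.452), Lig4 (-0.30, adjusted p = 0.291) and Rad18 (-0.50, adjusted p = 0.183) were not, nor were either of the other Xrcc2 probes (adjusted p = 0.495 and 0.051). For Fancg, probe A_52_P47829 was called in the opposite direction, higher by 0.84 (adjusted p = 0.00953). Its probe A_52_P165521 was not called (-0.16, adjusted p = 0.579). Leaving out wild type replicate 1 also raised the number of probes called on the whole array from 982 to 7644. Leaving out any of the other 7 arrays lowered that number to between 3 and 68. An adjusted p depends on all probes of its fit, so adjusted p values with and without an array are not directly comparable. The members' median moved to -0.33, and the arrays of 19 genes (55.9%, against 19.5% of all probes) then lay wholly lower in VRK1-deficient testes. The calls without this array rest on 3 wild type samples. They follow from leaving out an array picked from these same values, which favours such calls in advance.

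**Figure D2:**
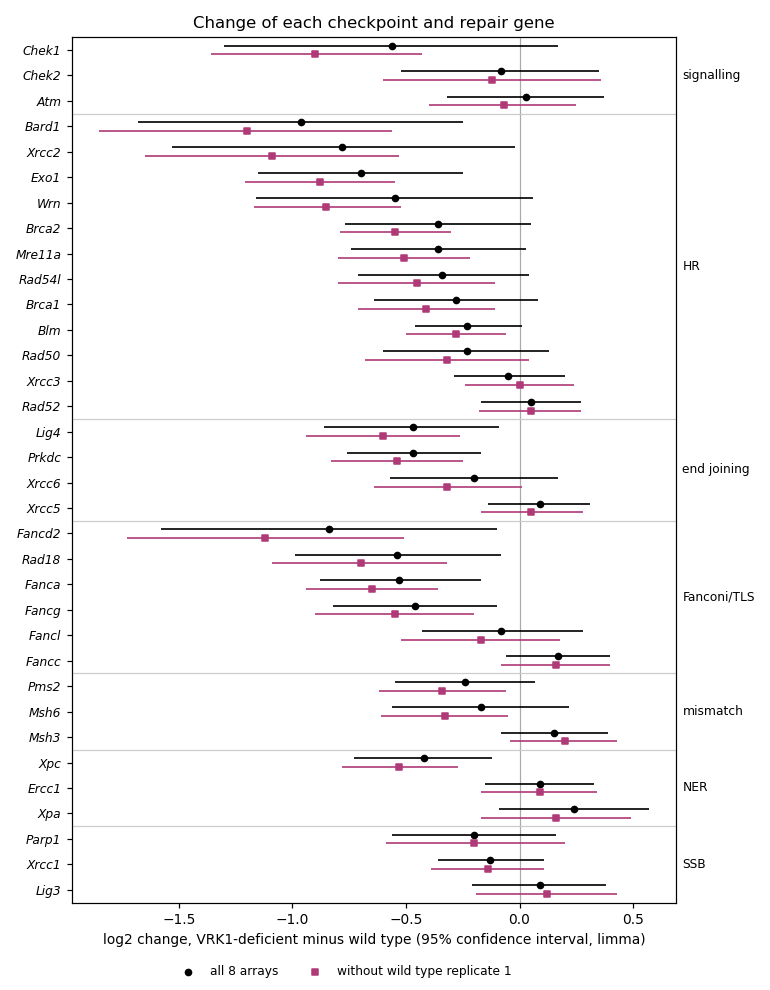
Log2 change of each gene, VRK1-deficient minus wild type, with its 95% confidence interval from limma (x axis), ordered by role (y axis). Circles use all 8 arrays and squares leave out wild type replicate 1, which moves Chek1 from -0.56 to -0.90 and leaves Rad52 and Xrcc3 near 0.

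Of the 6 damage signalling genes listed, Atm, Chek1 and Chek2 had a probe of that name. Chek1, the kinase that restrains the cell cycle when replication falters, gave -1.98, -1.04, -0.30 and -0.60 in wild type and -1.77, -1.24, -1.44 and -1.72 in VRK1-deficient replicates. Wild type replicates 2 to 4 were all above the VRK1-deficient arrays and replicate 1 was below all of them. The difference was -0.56 (SE 0.33, adjusted p = 0.279), and without wild type replicate 1 it was -0.90 (SE 0.20, adjusted p = 0.015). On slide 1 the difference rounded to 0.00 and on slide 2 it was -1.13. A second Chek1 probe gave -0.51.

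Chek2, the effector kinase downstream of ATM, differed by -0.08 (95% confidence interval -0.52 to 0.35), and its arrays overlapped throughout. Atm, the kinase that senses double-strand breaks, gave -2.08, -1.60, -2.01 and -1.47 in wild type and -1.78, -1.82, -1.69 and -1.76 in VRK1-deficient testes. The VRK1-deficient arrays lay inside the wild type range and the difference was 0.03 (95% confidence interval -0.32 to 0.37). A second probe named Atm, at another genomic position, had a difference of the opposite sign, -0.55 (SE 0.28, adjusted p = 0.227). The place of either probe in the transcript was not read.

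Among the 12 measured genes of break ends and homologous recombination, 11 had a lower mean in VRK1-deficient testes and 1 a higher one. Their median change was -0.35. 0 were called with all arrays and 7 were called lower without wild type replicate 1, where 14.7% of all probes were called lower.

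Bard1 and Brca1 encode the partners of a ubiquitin ligase that promotes the cutting back of broken ends. Bard1 gave -2.27, -1.34, -1.63 and -0.97 in wild type and -3.21, -2.11, -2.14 and -2.60 in VRK1-deficient testes. Only wild type replicate 1 lay within the VRK1-deficient range. The difference, -0.96 (SE 0.32, adjusted p = 0.0952), corresponded to 51.3% of wild type and was the most negative of the 34, and without wild type replicate 1 it was -1.20 (adjusted p = 0.0173). It was -0.85 on slide 1 and -1.08 on slide 2. Brca1 differed less, with wild type values of 1.03, 1.64, 1.35 and 1.68 against 1.05, 1.32, 1.19 and 1.02. Its change was -0.28 (SE 0.16, adjusted p = 0.278), and without wild type replicate 1 it was -0.41 (adjusted p = 0.047).

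Exo1 encodes a 5′ to 3′ exonuclease that resects broken ends and also acts in mismatch repair. Its wild type values were 2.22, 2.81, 3.11 and 2.93 and its VRK1-deficient values 1.84, 2.30, 2.16 and 1.97. All VRK1-deficient arrays were below wild type replicates 2 to 4, and VRK1-deficient replicate 2 was slightly above wild type replicate 1. The difference was -0.70 (SE 0.20, adjusted p = 0.069), or 61.5% of wild type, and -0.88 without wild type replicate 1 (adjusted p = 0.00543). Mre11a and Rad50 encode parts of the nuclease complex that first binds a broken end. Mre11a differed by -0.36 (SE 0.17, adjusted p = 0.199) and by -0.51 without wild type replicate 1 (adjusted p = 0.021), but a second probe for it gave 0.01. Rad50 differed by -0.23 (SE 0.16), with wild type values of 0.18, 0.74, 0.18 and 0.67 that enclosed all but the lowest VRK1-deficient array.

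Brca2, a central factor of homologous recombination, gave 1.18, 1.82, 2.06 and 1.91 in wild type and 1.30, 1.39, 1.47 and 1.36 in VRK1-deficient testes. Wild type replicate 1 was below every VRK1-deficient array and the other wild type arrays were above every one. The difference was -0.36 (SE 0.18, adjusted p = 0.225), and -0.55 (SE 0.11, adjusted p = 0.00937) without that array. Xrcc2 and Xrcc3 also act in homologous recombination. Xrcc2 gave -2.63, -1.57, -1.11 and -1.45 in wild type and -2.91, -2.25, -1.94 and -2.78 in VRK1-deficient testes, with overlap through wild type replicate 1 alone. Its difference was -0.78 (SE 0.33, adjusted p = 0.163) and -1.09 without replicate 1 (adjusted p = 0.0146), while a second probe for Xrcc2 gave 0.21 (adjusted p = 0.387). Xrcc3 differed by -0.05 (95% confidence interval -0.29 to 0.20).

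The translocase gene Rad54l differed by -0.34 (SE 0.17, adjusted p = 0.212) and by -0.45 without wild type replicate 1 (adjusted p = 0.0541), and Rad52, whose product anneals single strands, by 0.05 (95% confidence interval -0.17 to 0.27). Blm and Wrn encode RecQ helicases, the enzymes missing in Bloom and Werner syndromes. Blm gave 1.71, 1.94, 1.95 and 1.89 in wild type and 1.65, 1.71, 1.65 and 1.57 in VRK1-deficient testes, and the genotypes did not overlap, although wild type replicate 1 and VRK1-deficient replicate 2 differ only beyond the printed digits. The difference was -0.23 (SE 0.10, adjusted p = 0.185), and -0.28 without wild type replicate 1 (adjusted p = 0.0591). Wrn gave -2.90, -1.68, -1.74 and -1.76 in wild type and -2.89, -2.51, -2.57 and -2.34 in VRK1-deficient testes. Wild type replicate 1 was the lowest of all 8 arrays while the other 3 wild type arrays were the highest, and the difference was -0.55 (SE 0.27, adjusted p = 0.208) with it and -0.85 (SE 0.14, adjusted p = 0.00572) without it.

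End joining was measured through 4 genes, of which 3 had a lower mean. Prkdc, the catalytic subunit of the DNA-dependent protein kinase, gave 0.76, 1.12, 0.83 and 1.20 in wild type and 0.47, 0.64, 0.49 and 0.43 in VRK1-deficient testes. Every VRK1-deficient array was below every wild type array. The difference, -0.47 (SE 0.13, adjusted p = 0.0681), was the nearest to the threshold of all 34 and corresponded to 72.3% of wild type. It was -0.39 on slide 1 and -0.55 on slide 2, and without wild type replicate 1 its adjusted p was 0.0163. Lig4, the ligase that seals the joined ends, gave -0.77, -0.51, -0.10 and -0.24 against -1.15, -0.75, -0.78 and -0.84, with wild type replicate 1 alone inside the VRK1-deficient range. The difference was -0.47 (SE 0.17, adjusted p = 0.111) and -0.60 without that array (adjusted p = 0.0207). The Ku subunits, which hold the broken ends, differed by -0.20 for Xrcc6 (95% confidence interval -0.57 to 0.17) and by 0.09 for Xrcc5 (95% confidence interval -0.14 to 0.31).

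The 6 Fanconi anaemia and translesion genes, which deal with crosslinks and stalled forks, had a median change of -0.49, the lowest of the 7 roles, with 5 lower and 1 higher. 0 were called with all arrays and 4 were called lower without wild type replicate 1, where 14.7% of all probes were called lower. Fanca, a subunit of the core complex, gave 1.83, 2.25, 2.55 and 2.21 in wild type and 1.56, 1.65, 1.71 and 1.82 in VRK1-deficient testes. The genotypes did not overlap, though the gap between them was narrow. The difference was -0.53 (SE 0.16, adjusted p = 0.0762), and -0.65 without wild type replicate 1 (adjusted p = 0.00898).

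Fancd2, the protein that the core complex ubiquitinates, gave -1.25, -0.03, -0.62 and 0.26 in wild type and -1.53, -0.87, -0.93 and -1.66 in VRK1-deficient testes. Wild type values were widely spread and replicate 1 lay among the VRK1-deficient arrays. The difference was -0.84 (SE 0.33, adjusted p = 0.137), or 55.9% of wild type, and -1.12 without replicate 1 (adjusted p = 0.0182). Rad18, the ubiquitin ligase that acts on PCNA at stalled forks, gave 1.16, 1.78, 1.72 and 1.93 against 1.04, 1.34, 1.33 and 0.73. Again wild type replicate 1 was inside the VRK1-deficient range, and the difference was -0.54 (SE 0.20, adjusted p = 0.124) with it and -0.70 (adjusted p = 0.0185) without it. Fancl, the ubiquitin ligase subunit, differed by -0.08 (95% confidence interval -0.43 to 0.28) and Fancc, another core subunit, by 0.17 (95% confidence interval -0.06 to 0.40).

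Fancg, also of the core complex, was measured by 3 probes that did not move together. The brightest, A_51_P383800, lies on chromosome 4 at 43016178 to 43016237 of the mm7 build and gave 1.08, 1.25, 1.79 and 1.26 in wild type and 0.80, 0.87, 0.86 and 1.01 in VRK1-deficient testes. These arrays did not overlap and the difference was -0.46 (SE 0.16, adjusted p = 0.104). The probe A_52_P47829, at 43023816 to 43023875 on the same strand and so nearer the start of the gene, gave -0.18, -0.69, -0.19 and -0.72 in wild type and 0.25, 0.09, 0.39 and 0.50 in VRK1-deficient testes. It was higher on every VRK1-deficient array, by 0.75 (SE 0.17, adjusted p = 0.0493), and was the only other probe of a listed name to pass the threshold. Without wild type replicate 1 its adjusted p was 0.00953, and without any of the other 7 arrays it lay between 0.0636 and 0.151. The third probe, A_52_P165521, differed by -0.19 (SE 0.18, adjusted p = 0.52). The first 30 bases of each 60-base probe are shown because the probes carry the same gene name at separate positions. They are printed as given for the array, and the place of each probe in the transcript was not read.
A_51_P383800: ctatgttaatccttctggaggagcagtttt
A_52_P47829: ttttccagtagcctggacctgtggagggaa
A_52_P165521: aacaaggctccgactgtgagcagaagtgta

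**Figure D3:**
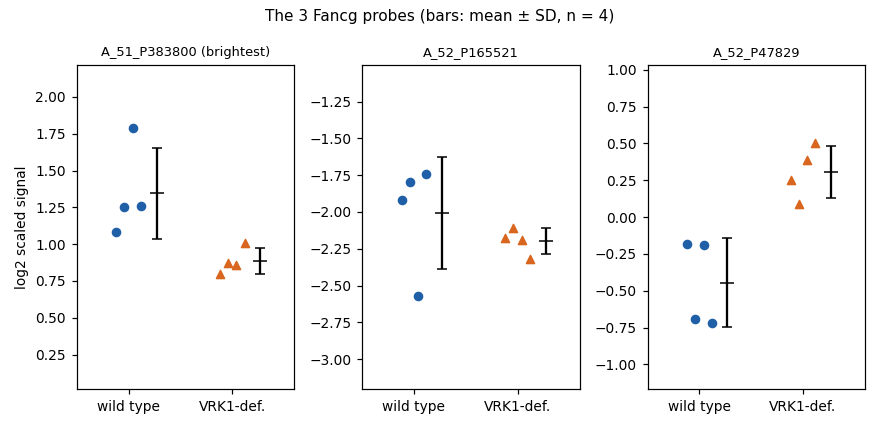
Log2 scaled signal (y axis) of the 3 Fancg probes in the 4 wild type (circles) and 4 VRK1-deficient (triangles) arrays, with mean and SD beside the points. Each panel spans the same range of log2 units around its own level. The brightest probe is lower and A_52_P47829 higher on every VRK1-deficient array, and the third probe overlaps.

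The median change was -0.17 for mismatch, 0.09 for nucleotide excision and -0.13 for single-strand break repair, and without wild type replicate 1 it was -0.33, 0.09 and -0.14. Msh6 and Msh3 encode proteins that recognise mispaired bases. Msh6 differed by -0.17 (SE 0.17, adjusted p = 0.527), and by -0.33 without wild type replicate 1 (adjusted p = 0.074), with wild type replicate 1 at 3.20 and the others between 3.71 and 3.98 against 3.31 to 3.60 in VRK1-deficient testes. Msh3 gave 2.14, 1.94, 1.99 and 1.98 in wild type and 2.31, 2.14, 2.08 and 2.15 in VRK1-deficient testes, a difference of 0.15 (SE 0.11, adjusted p = 0.353). It was the 1 gene whose VRK1-deficient arrays all lay above wild type once replicate 1 was left out (0.20, adjusted p = 0.178). The share of all probes that did so was not counted. For Msh3, 2 of the other probes had differences of the opposite sign, -0.25 and -0.33. Pms2, an endonuclease subunit that nicks the strand to be repaired, differed by -0.24 (SE 0.14, adjusted p = 0.277), and by -0.34 without that array (adjusted p = 0.0687).

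In nucleotide excision repair, which removes bulky adducts, Xpc senses the lesion, Xpa checks it and Ercc1 forms part of a nuclease that cuts beside it. Xpc gave 1.86, 2.34, 2.23 and 2.24 in wild type and 1.76, 1.88, 1.76 and 1.59 in VRK1-deficient testes. The first wild type array was just below VRK1-deficient replicate 2 and all other wild type arrays were above every VRK1-deficient array. The difference was -0.42 (SE 0.14, adjusted p = 0.0889), and -0.53 (adjusted p = 0.0116) without wild type replicate 1. Xpa differed by 0.24 (95% confidence interval -0.09 to 0.57), by 0.46 on slide 1 and 0.02 on slide 2, and Ercc1 by 0.09 (95% confidence interval -0.15 to 0.33).

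In single-strand break repair 2 of 3 genes had a lower mean. Parp1, which marks nicked DNA, gave 3.84, 4.11, 3.42 and 3.95 in wild type and 3.60, 3.78, 3.65 and 3.49 in VRK1-deficient testes. The lowest of its 8 arrays was wild type replicate 3, and the difference was -0.20 (95% confidence interval -0.56 to 0.16). The scaffold gene Xrcc1 differed by -0.13 (95% confidence interval -0.36 to 0.11) and its partner ligase Lig3 by 0.09 (95% confidence interval -0.21 to 0.38).

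The differences were more negative on slide 2. The median change of the 34 genes was -0.16 from the 4 arrays of slide 1 and -0.35 from the 4 arrays of slide 2, with 25 and 27 genes below 0. Of the 26 genes with a lower mean over both slides, 24 were lower by more on slide 2. Slide 1 carried wild type replicate 1. The difference between the slides was not tested.

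**Figure D4:**
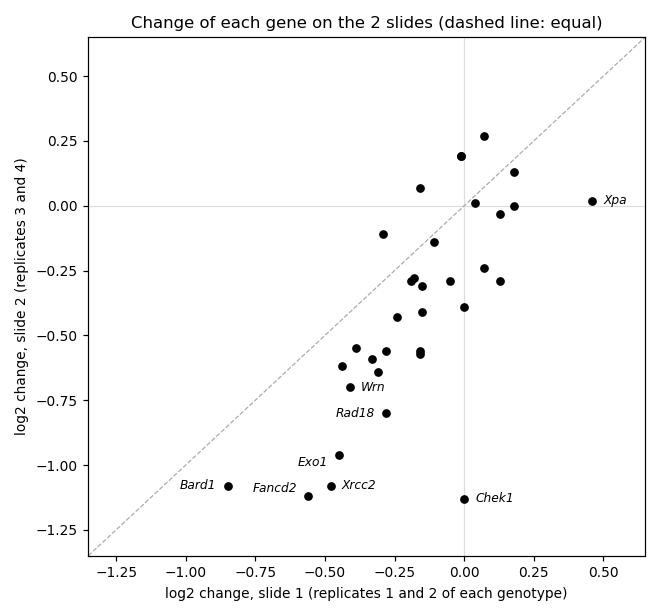
Log2 change of each of the 34 genes, VRK1-deficient minus wild type, computed from slide 1 (x axis) and from slide 2 (y axis), with selected genes named. Most points lie below the dashed line of equality, and Chek1 lies at 0.00 on slide 1 and -1.13 on slide 2.

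5 listed genes had no probe of their current name. Atr, the kinase activated by single-stranded DNA, and Mdc1, a scaffold at breaks, were not found by any older name either and were not analysed here. Atrip, the partner of ATR, was found as 6620401K05Rik and differed by 0.02 (SE 0.10, adjusted p = 0.90). Palb2, which joins BRCA1 to BRCA2, was found as BC066140 with 2 probes. The brighter differed by -0.36 (SE 0.22, adjusted p = 0.309), and by -0.55 without wild type replicate 1 (adjusted p = 0.0467). The dimmer gave -3.35, -3.49, -3.61 and -3.32 in wild type and -3.84, -4.13, -4.01 and -3.98 in VRK1-deficient testes. It was lower on every VRK1-deficient array, with a difference of -0.55 (SE 0.12, limma, adjusted p = 0.0475). Without wild type replicate 1 the difference was no larger, -0.52 (SE 0.12). Its adjusted p was then 0.0162, in a fit that called many more probes. With each of the other 7 arrays left out in turn, the adjusted p lay between 0.06 and 0.147. Rad54b, a relative of Rad54l, was found as E130016E03Rik, and its 3 probes differed by -0.38, -0.60 and -0.45, with adjusted p of 0.206, 0.0654 and 0.254. Without wild type replicate 1 the differences were -0.53, -0.69 and -0.70, and all 3 passed the threshold (adjusted p = 0.0392, 0.0154 and 0.0126).

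Further genes of the same pathways were counted in the same way. Of 107 further checkpoint and repair genes, 106 were tested, 69 with a lower and 37 with a higher mean, and their median change was -0.13. With all arrays 1 was called lower and 1 higher (0.943% each, against 1.97% and 1.68% of all probes). Without wild type replicate 1, 30 were called lower (28.3%, against 14.7%) and 8 higher (7.55%, against 13.6%). Recql4, a RecQ helicase, gave 1.38, 1.76, 1.81 and 1.64 in wild type and 0.70, 0.99, 0.92 and 0.62 in VRK1-deficient testes. It fell by 0.84 on the log2 scale (SE 0.14, adjusted p = 0.0409), without overlap, and by 0.93 without wild type replicate 1. Fancb, the X-linked subunit of the Fanconi core complex, gave -1.05, -1.16, -1.23 and -1.53 in wild type and -0.61, -0.54, -0.63 and -0.67 in VRK1-deficient testes. It rose by 0.63 (SE 0.13, adjusted p = 0.0455), also without overlap. When one of the remaining 7 was left out in turn, the adjusted p lay between 0.06 and 0.14 for Recql4 and between 0.0652 and 0.147 for Fancb.

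By pathway, the medians of these further genes were -0.21 for homologous recombination (21 genes), -0.19 for mismatch repair (8), -0.13 for single-strand break and base excision repair (19), -0.11 for the Fanconi and translesion genes (16), -0.09 for damage signalling (21), -0.06 for nucleotide excision repair (14) and -0.01 for end joining (8). Without wild type replicate 1 they were -0.33 for homologous recombination, -0.31 for mismatch repair, -0.17 for single-strand break and base excision repair, -0.17 for the Fanconi and translesion genes, -0.14 for damage signalling, -0.13 for nucleotide excision repair and 0.02 for end joining.

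Markers of meiotic prophase and of all germ cells (pan germ cell) moved with the repair genes across the arrays. The mean deviation of the 34 genes from their own wild type means was -0.32, 0.09, 0.07 and 0.16 in wild type replicates 1 to 4 and -0.37, -0.17, -0.21 and -0.34 in VRK1-deficient replicates 1 to 4. The first wild type array was thus close to the VRK1-deficient arrays. For 13 tested genes of meiotic prophase the same deviation was -0.88, 0.12, 0.27 and 0.49 in wild type and -1.42, -0.87, -0.92 and -1.17 in VRK1-deficient testes. All 13 had a lower mean, 3 were called lower (Sycp2, Stag3 and Mei1), and their summed linear signal, in units of each array's 75th percentile, ran from 20.3 to 51.9 in wild type and from 14.1 to 21.0 in VRK1-deficient testes, with the lowest wild type value in replicate 1. All 12 tested pan germ cell genes also had a lower mean and 1, Tdrd1, was called lower, with summed levels of 31.9 to 85.4 against 23.1 to 37.9.

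When wild type replicate 1 was left out, 12 of the 13 meiotic and 11 of the 12 pan germ cell genes were called lower. In that fit 14.7% of all probes were called lower and 13.6% higher, and with all arrays 1.97% and 1.68% were. Of the spermatogonial lists, 8 of 13 undifferentiated markers had a lower mean (Sall4 called lower and Bcl6b higher, 6 and 4 without wild type replicate 1, summed level 10.7 to 15.4 against 8.82 to 10.5), as did 6 of 7 differentiating markers (Dmrtb1 and Dnmt3b called lower, 6 lower and 1 higher without that array, summed level 60.9 to 101.0 against 55.9 to 69.5), and Prdm9 was not well above background on any array. The 15 Sertoli cell markers had a median change of 0.39, with 12 higher, 0 called (9 called higher and 1 lower without wild type replicate 1), and summed levels of 253 to 372 against 339 to 400, the highest wild type value again being replicate 1. Leydig cell (median 0.37, 0 of 9 called, 5 called higher without that array), endothelial (0.33, 0 of 7, and 2 higher), macrophage (0.09, 0 of 8) and peritubular myoid markers (-0.04, 0 higher and Cnn1 lower of 8, and 1 each way without that array) gave that 1 call among them with all arrays, and Cd163 was not well above background on any array.

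The median change was 0.01 for 18 mitotic genes (-0.03 without wild type replicate 1), 2 of which, Ccna2 and Cdc2a, were called higher, with summed levels of 130 to 169 in wild type and 124 to 153 in VRK1-deficient testes. For 18 S phase genes it was -0.11 (-0.22 without wild type replicate 1, with 3 called lower and 2 higher), with Pola1 called higher and summed levels of 162 to 220 and 163 to 197. Of all probes, 14.7% were called lower and 13.6% higher without wild type replicate 1, and 1.97% and 1.68% with all arrays. The called genes of these lists are named after their values were seen. The part of germ cell number in the values of the repair genes was not tested.

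**Figure D5:**
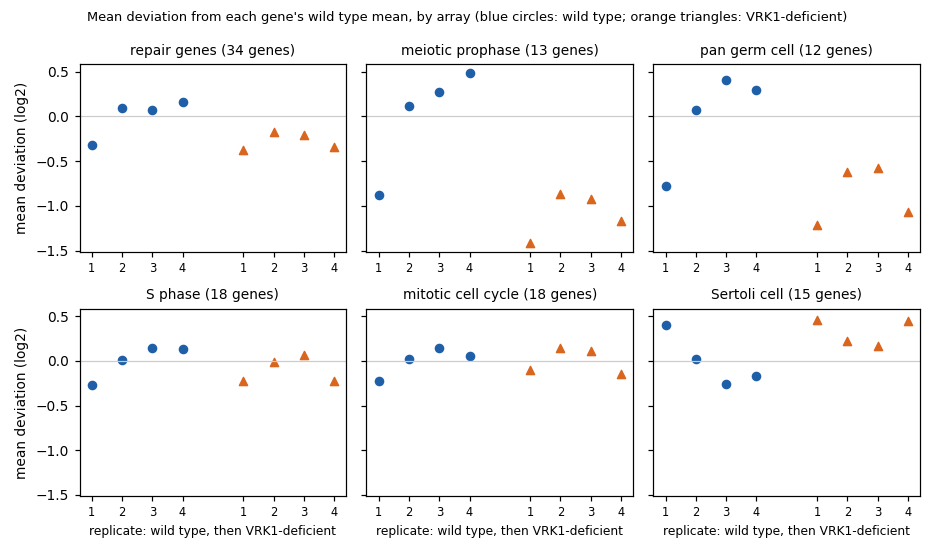
Mean deviation, in log2 units, of each list of genes from the wild type mean of each gene (y axis) on each array (x axis, wild type replicates 1 to 4 then VRK1-deficient replicates 1 to 4). The repair genes and both germ cell lists are low in wild type replicate 1 and in VRK1-deficient testes, and the Sertoli list is high in the same arrays. These lists overlap between genotypes through wild type replicate 1 alone. The S phase and mitotic lists are also lowest among wild type arrays in replicate 1, and they overlap through other wild type arrays as well. The spermatogonial lists are not drawn.

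Many repair genes are known targets of E2F factors, which switch on genes for DNA synthesis, so the promoters were searched for forms of the E2F site. Promoter windows from 250 bases before to 50 after the start were given by RefSeq (GRCm38.p6) for 27 of the 34 genes. Rad50, Xrcc2, Wrn, Exo1, Prkdc, Fancd2 and Xpc had no entry. The motifs TTTCCCGC, TTTGGCGC, TTTCGCGC and TTTGCCGC were searched on both strands. A match was present in 7 of the 27 (25.9%), Chek2, Bard1, Brca2, Xrcc6, Fancg, Msh3 and Msh6, against 2.26% of 32851 mouse promoter windows. The first share counts genes, some of which have several windows, and the second counts windows. Of the 10 genes lower at an unadjusted p under 0.05, 5 had a window and 2 of those a match, Bard1 and Fancg. Fancg is counted by its brightest probe, while another of its probes was higher. The genes with a match had changes from -0.96 (Bard1) to 0.15 (Msh3). The 60-base windows of Bard1 and Fancg are printed as those 2, Brca2 as a gene called lower without wild type replicate 1, and Msh3 as the gene with a match whose mean was higher. They read 5′ to 3′ on the strand of the gene, with the match in capitals, which for Brca2 is the reverse complement, and for Msh3 the capitals cover 2 overlapping matches, TTTGGCGC and the reverse complement of TTTCGCGC.
Bard1, chr1:71103148-71103207, minus strand, the match starting 209 bases before the start: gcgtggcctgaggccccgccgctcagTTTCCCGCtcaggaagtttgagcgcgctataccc
Fancg, chr4:43010320-43010379, minus strand, 52 bases before: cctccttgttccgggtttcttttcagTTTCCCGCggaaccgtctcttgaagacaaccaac
Brca2, chr5:150522427-150522486, plus strand, 168 bases before: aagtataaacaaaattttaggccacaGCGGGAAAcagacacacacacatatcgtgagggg
Msh3, chr13:92355172-92355231, minus strand, 202 bases before: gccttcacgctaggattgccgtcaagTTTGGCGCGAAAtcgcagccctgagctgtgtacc
The matches sit at different distances from the start, and a match describes letters in the window, not a bound site.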

How the data were processed

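Gene expression in 4 wild type and 4 VRK1-deficient testis samples was measured on Agilent 1-colour whole mouse genome arrays. The deposited scanner files, made by the authors with Agilent Feature Extraction 9.5.3.1, hold the background-subtracted processed signal intensity of 45018 spots per array. The deposited series table holds the same intensity values, unscaled. Probe positions refer to mm7. Outlier spots (58 to 134 per array) and controls were left out, spots of a probe were averaged, and log2 values were shifted by the 75th percentile of each array. The 26951 probes that exceeded background clearly in 4 or more arrays, by the scanner's own flag, were fitted with limma 3.58.1 (R 4.3.3) and Benjamini-Hochberg adjustment, without covariates, and called at an adjusted p under 0.05. The fit was tested on simulated data with independent errors. It called 90% of 200 probes changed by 1 to 2 log2 units in the right direction, and 13 unchanged probes. Smaller changes and deviations shared by the probes of an array were not simulated. The members and lists were chosen with earlier results of these data known. All members were named, other probes of a gene where they differed in sign or call, and further pathway genes where called. Alternatives were other scalings, background corrections, filters, tests, slides, a replicate block and leaving out each array. The number of arrays limits the precision. Python 3.11.15 was used for summaries.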

Additional observations from a re-analysis of the deposited data

Results flagged for a closer look

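In 68 groups of 4 arrays, the gap between the most extreme array and its nearest neighbour, divided by the range of the group, was compared with Dixon's 95% critical value, which chance alone exceeds in about 1 in 20 groups. 3 groups exceeded it. Wrn in wild type replicate 1 was at -2.90, with the other wild type arrays between -1.76 and -1.68. Fancc in wild type replicate 2 was at 0.16, with the others at 0.05 to 0.06. Ercc1 in VRK1-deficient replicate 4 was at 2.39, with the others between 2.13 and 2.16. Without wild type replicate 1 the change of Wrn passed from an adjusted p of 0.208 to 0.00572 (limma).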

How the results depend on the processing

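Over 21 alternatives and the 34 genes, 668 of 714 values kept their sign and their side of the threshold, 21 passed the threshold and 25 changed sign, in 12 genes. No gene was called higher under any alternative. The number called lower was 1 with an intensity trend and robust variances (Exo1), 1 with normexp (Fanca), 3 with the replicate block (Bard1, Xrcc2 and Exo1), 1 on slide 2 alone (Chek1) and 0 to 15 when 1 array was left out, 15 only without wild type replicate 1, and 0 under the others. Where 1 of 34 genes (2.94%) was called, the share of all probes called lower was 3.92% with the trend, 2.37% with normexp and 2.77% on slide 2. With the block, where 3 of 34 genes were called, it was 5.72%. Same-numbered samples were not paired by their values (correlations of deviations 0.468, 0.073, 0.188 and -0.138 for numbers 1 to 4), so the replicate block is given here only.

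Among all probes the calls, 982 in the report, numbered 1921 with the intensity trend, 596 with the median as scale, 626 with slide as a block, 2280 with the replicate block, 3 on slide 1 alone, 1059 on slide 2 alone, 1412 with normexp, 217 by the methods' t-test, 17 without a filter on dim probes and 3 to 7644 when 1 array was left out. The members' median stayed between -0.42 and -0.16. On the deposited values without scaling the change was -0.15 for Atm, -0.13 for Rad52, -0.01 for Fancc, -0.02 for Msh3 and -0.09 for each of Xrcc5, Ercc1 and Lig3, where all probes shifted down together. With the mean of a gene's probes it was -0.26 for Atm, 0.03 for Fancg and -0.02 for Msh3, and with normexp 0.01 for Chek2. On slide 1 it was 0.00392 for Chek1, 0.07 for Chek2, 0.13 for Fancl and -0.01 for both Ercc1 and Lig3, and on slide 2 it was -0.03 for Rad52, 0.07 for Xrcc3 and -0.00286 for Xrcc5. When 1 array was left out it ran from -0.07 to 0.13 for Atm, -0.21 to 0.06 for Chek2, -0.17 to 0.04 for Fancl and -0.01 to 0.15 for Lig3. The cause of these moves was not tested.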
